A study of Mus musculus with 15 samples.

Results

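The genes described here encode the enzymes that switch the pyruvate dehydrogenase complex off and on: the 4 kinases Pdk1, Pdk2, Pdk3 and Pdk4 and the 2 phosphatase catalytic subunits Pdp1 and Pdp2. They are 6 of the 38283 genes in the deposited expression table and were found there by gene symbol. They were chosen with their levels known, because Pdk4 was far higher in alpha cells than in delta cells, so the comparison of delta with alpha cells, and every comparison of Pdk4 with alpha cells, is given as a description without a test.

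RNA was sequenced from 15 samples of mouse pancreatic islet cells purified by flow cytometry, all on a C57BL/6 background. Alpha cells (n = 5) came from Glu-Venus mice, in which the proglucagon promoter drives the fluorophore Venus, and beta cells (n = 4) were the Venus-negative cells of such sorts with high scatter and high autofluorescence. Delta cells (n = 6) came from Sst-CreXROSA26EYFP/EYFP mice, in which Cre driven by the somatostatin promoter switches on EYFP, so cell type and mouse line cannot be told apart for delta cells. Each sample held islets pooled from several mice, RNA amplification preceded the library preparation, and no treatment or age was given for the mice of these samples. The spread between samples is therefore a spread between pools, and in sorted populations fewer cells of a type and less RNA per cell cannot be told apart.

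The pyruvate dehydrogenase complex sits in the mitochondrial matrix and turns pyruvate from glycolysis into acetyl-CoA, the fuel of the tricarboxylic acid cycle. The kinases phosphorylate the alpha subunit of its first enzyme and switch the complex off, and the phosphatases remove the phosphate and switch it on again. Pdk4 is best known from heart, skeletal muscle and liver, where fasting and fatty acids raise it and pyruvate is spared. In beta cells, pyruvate can also enter the cycle through pyruvate carboxylase, encoded by Pcx.

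The sorted samples carried the hormone mRNA of their labels. The summed level of 5 alpha cell markers, Gcg among them, was 194900 to 363700 FPKM (counts of sequenced fragments divided by the length of the transcript and by the library's mapped reads) in alpha samples and at most 3004 FPKM in the others. The summed level of 5 beta cell markers was at least 118200 FPKM in beta samples and at most 12690 FPKM elsewhere, and that of 4 delta cell markers was at least 102600 FPKM in delta samples and at most 3346 FPKM elsewhere. Each sum was mostly hormone mRNA. The delta cell marker Rbp4 alone did not part the labels, with 265.6 to 1094 FPKM in alpha and 728.1 to 3317 FPKM in delta samples. The gamma cell hormone Ppy was also high in alpha samples (17730 to 41390 FPKM) and delta samples (10860 to 48600 FPKM), and its part in any result was not tested. Samples also stood apart in the summed FPKM of 86 ribosomal protein genes, which was 66063 to 141566 in 6 samples (delta 1 and 2, beta 2 and alpha 1 to 3) and 8183 to 39078 in the other 9. Read depth could be judged for 6 samples and was between 7.39 M and 30.4 M reads.

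Pdk4 was the leading kinase gene of alpha cells and was close to zero in beta and delta cells. The gene (ENSMUSG00000019577) lies on the minus strand at chr6:5483351-5496309 of GRCm38 and has 11 exons in its main transcript. Its level was 96.1, 90.3, 70.4, 142.8 and 150.4 FPKM in alpha samples 1 to 5, a mean of 110.0 ± 34.8 (SD, n = 5). In the beta samples it was 0.133, 0.0733, 0.00566 and 0.0575 FPKM, a mean of 0.0674 ± 0.0526 (SD, n = 4). In the delta samples it was 0.512, 0.0524, 0.121, 0.0727, 0.176 and 0.895 FPKM, a mean of 0.305 ± 0.334 (SD, n = 6). The lowest alpha sample was far above the highest sample of either other cell type, so neither comparison with alpha cells overlapped.

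The mean FPKM of Pdk4 in alpha cells was 1632 times that in beta cells and 361 times that in delta cells. Both folds rest on means near zero: with each sample left out in turn they ran from 1250 to 2420 and from 309.5 to 588.6, the latter without delta sample 6, and read depth was unknown in every beta sample. The lowest alpha sample was 528 times the highest beta sample and 78.7 times the highest delta sample. On the scale of log2(FPKM + 1), which understates the change of a gene near zero, beta cells were lower than alpha cells by a difference of -6.64 and delta cells by a difference of -6.39. Among the 14405 genes with a mean above 1 FPKM in at least 1 cell type, these were the 6th and the 3rd lowest differences. Samples of the 2 cell types did not overlap, with the beta samples lower, for 5.07% of all those genes, and with the delta samples lower for 1.67%. Since the gene was chosen for this pattern, nothing is read from these shares. By mean FPKM, Pdk4 stood above 96.1%, 7.48% and 5.19% of the same genes in alpha, beta and delta cells.

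The trace of Pdk4 in delta cells rested on few reads. Where single reads could be resolved, its value stood for about 18.5, 1.66, 12.1 and 6.09 reads in delta samples 1 to 4, against about 2190 and 13100 reads in alpha samples 2 and 5. Delta samples 1 and 6 held the highest of these low values. As a share of the alpha cell mean, Pdk4 was 0.0476% to 0.813% in delta samples and 0.00514% to 0.121% in beta samples. Glucagon mRNA (Gcg), measured the same way, was 0.0866% to 0.281% in delta samples and 0.0608% to 0.666% in beta samples. Ttr, an abundant alpha cell transcript, was 0.281% to 0.796% and 0.891% to 7.58%. The ranges of Pdk4 and Gcg overlapped in both cell types, but they differed sample by sample. The share of Pdk4 was above that of Gcg in delta samples 1 (0.465% against 0.165%), 5 (0.16% against 0.0866%) and 6 (0.813% against 0.122%). It was also above in beta sample 1 (0.121% against 0.0955%), and below in every other beta and delta sample. The part of alpha cell RNA in these shares was not tested. Since Pdk4 passed the filter of 1 FPKM only through its alpha cells, no comparison of delta with beta cells was drawn from it: its delta minus beta difference was 0.26 on the scale of log2(FPKM + 1), 0.97 with a pseudocount of 0.1 and -0.0121 after quantile normalization, and the samples overlapped.

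The level of Pdk4 in alpha cells was seen in both sets of samples with different ribosomal protein sums. Its mean was 85.6 FPKM in the 3 alpha samples with the higher sums and 146.6 FPKM in the 2 with the lower sums. The sex-linked gene Xist followed the same split in alpha cells. Xist was at 16.9 to 21.4 FPKM in the first 3 of these samples and at most 0.0401 FPKM in the other 2. These 2 splits cannot be told apart in alpha cells. Within the lower set, the log2 difference from alpha cells was -7.12 in beta cells and -6.85 in delta cells. Genes of other tissues in which Pdk4 is abundant were near zero: of 4 muscle and fat markers, 3 were listed at 0 in every alpha sample and their summed level was at most 0.159 FPKM. Of 5 stellate cell and fibroblast markers, 2 were listed at 0 in every alpha sample, and the sum of all 5 was 0.848 to 3.81 FPKM in alpha samples and at most 0.0576 FPKM in the others. In alpha samples this sum was nearly all Col1a2 (mean 2.16 FPKM), with Col3a1 and Dcn at means of 0.00155 and 0.00455 FPKM. The summed level of 5 ductal markers was 25.4 to 172.1 FPKM in alpha, 8.56 to 24.7 FPKM in beta and 20.4 to 101.2 FPKM in delta samples, and that of 7 acinar markers 0.122 to 84.0, 0.0447 to 15.8 and 3.00 to 515.1 FPKM. In alpha samples the ductal sum was mostly Spp1 and Krt7 (means of 54.8 and 9.36 FPKM). The ductal markers Krt19, Sox9 and Muc1 had alpha means of 1.97, 0.00229 and 0.0528 FPKM. Those of 5 endothelial and 5 immune markers were at most 1.10 and 2.81 FPKM in any sample. The part of these cells in the level of Pdk4 was not tested.

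**Figure D1:**
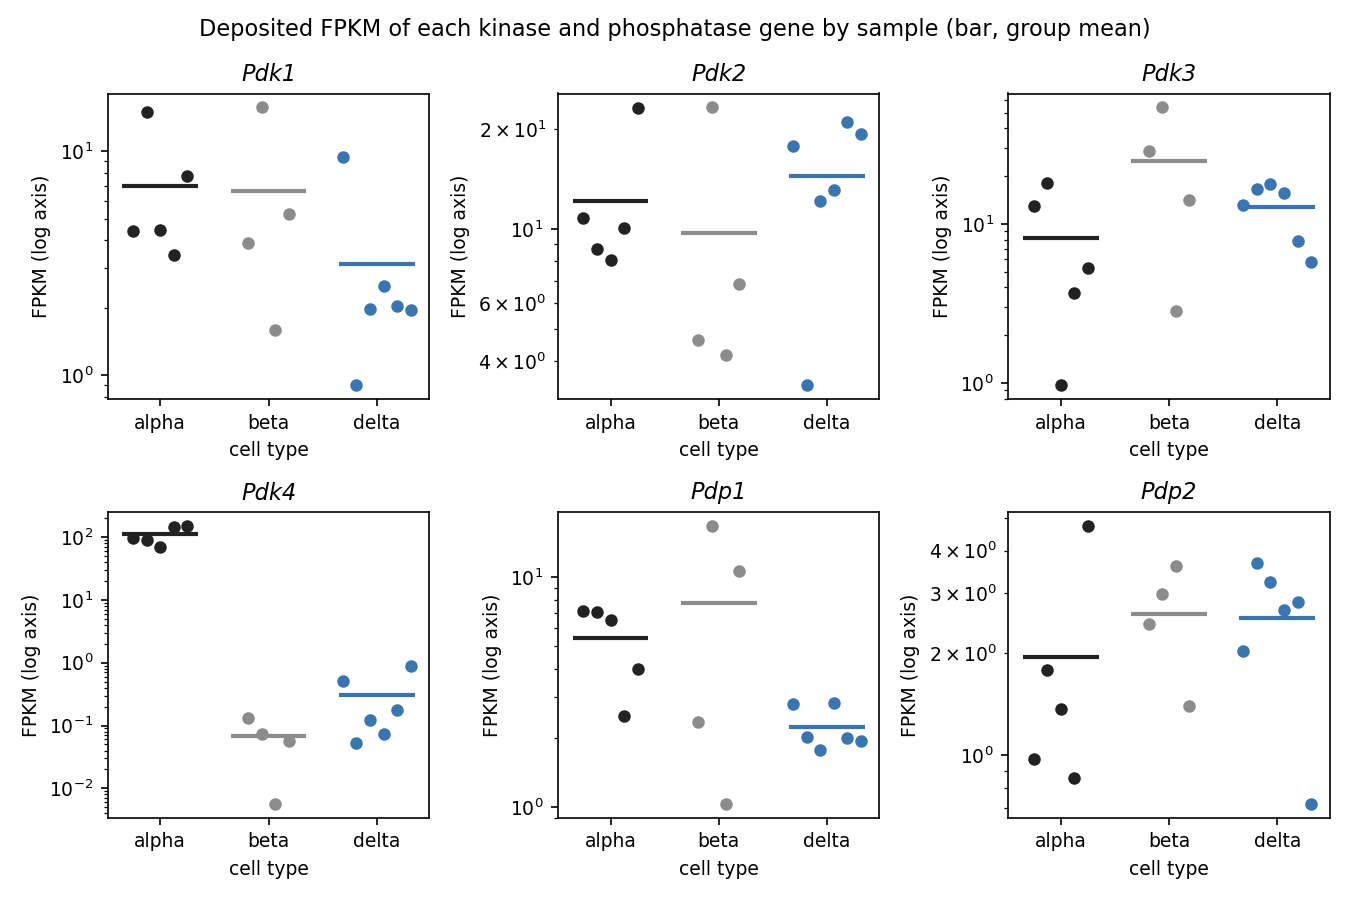
Deposited level of the 6 genes in FPKM (log axis, a different range in each panel) in every alpha, beta and delta sample, with points in replicate order and a bar at the group mean. Pdk4 separates the alpha samples (70.4 to 150.4 FPKM) from all others (at most 0.895 FPKM), while the samples of the 3 cell types overlap for the other 5 genes.

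The kinases Pdk2 and Pdk3 carried most of the kinase mRNA outside alpha cells. Pdk2, the most widely expressed kinase of the family, lies on the minus strand at chr11:95026258-95041354 and overlaps the antisense gene Gm11513. The counting is not stated to use strand, so reads of the pair cannot be told apart. The level of Pdk2 was 10.8, 8.74, 8.10, 10.1 and 23.1 FPKM in alpha samples, 4.63, 23.3, 4.19 and 6.85 FPKM in beta samples, and 17.8, 3.39, 12.2, 13.1, 21.1 and 19.3 FPKM in delta samples. The order of the means was delta (14.5 ± 6.45, SD), alpha (12.2 ± 6.22) and beta (9.74 ± 9.10). The SDs were as large as the gaps between the means, and beta sample 2 stood above every delta sample.

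Pdk2 did not pass the test in either comparison. On the log2 scale its beta minus alpha difference was -0.51 (SE 0.535, 95% interval -1.64 to 0.63, limma adjusted p = 0.610) and its delta minus beta difference was 0.67 (SE 0.515, 95% interval -0.42 to 1.77, limma adjusted p = 0.428). Among the samples with lower ribosomal protein sums alone, Pdk2 was 4.19 to 6.85 FPKM in the 3 beta samples and 12.2 to 21.1 FPKM in the 4 delta samples, with the lowest delta above the highest beta sample. There the difference of delta from beta cells was 1.47 and passed the test (limma adjusted p = 0.0213). Over all samples it was 0.32 with median-ratio size factors (limma adjusted p = 0.658) and 0.34 with the replicate number as a block (limma adjusted p = 0.734).

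Pdk3 is X-linked, at chrX:93764607-93832201 on the minus strand. Its level was 13.0, 18.0, 0.968, 3.70 and 5.31 FPKM in alpha samples, 28.9, 54.3, 2.84 and 14.2 FPKM in beta samples, and 13.1, 16.8, 18.0, 15.7, 7.85 and 5.76 FPKM in delta samples. Beta samples 1 and 2 were the highest of all 15, and beta sample 3 was lower than every delta sample. The mean was 25.0 ± 22.2 (SD) in beta cells, 12.9 ± 5.01 in delta cells and 8.21 ± 7.09 in alpha cells, and neighbours in this order overlapped. The beta minus alpha difference was 1.35 (SE 0.729, 95% interval -0.19 to 2.90, limma adjusted p = 0.286), the widest interval among the 6 genes, and the delta minus beta difference was -0.44 (SE 0.701, 95% interval -1.93 to 1.05, limma adjusted p = 0.729). Without beta sample 2 the latter turned to 0.11.

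Pdk1, the kinase known as a target of hypoxia signalling, lies on the plus strand at chr2:71873224-71903858. It was present at 4.39, 14.9, 4.46, 3.44 and 7.77 FPKM in alpha samples, 3.90, 15.7, 1.59 and 5.26 FPKM in beta samples, and 9.44, 0.897, 1.98, 2.49, 2.04 and 1.96 FPKM in delta samples. Apart from delta sample 1, the delta samples lay at or below 2.49 FPKM, under every alpha sample but not under beta sample 3. The means were 6.99 ± 4.71 (SD) in alpha, 6.61 ± 6.24 in beta and 3.13 ± 3.13 FPKM in delta cells. The log2 difference of beta minus alpha was -0.24 (SE 0.558, 95% interval -1.42 to 0.95, limma adjusted p = 0.851) and that of delta minus beta was -0.78 (SE 0.537, 95% interval -1.92 to 0.35, limma adjusted p = 0.368). The untested difference of delta from alpha cells was -1.02, and those of Pdk2 and Pdk3 were 0.17 and 0.91.

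The make-up of the kinase mRNA in alpha cells stood apart through Pdk4, the gene chosen for its alpha cell level. Pdk4 had the highest FPKM of the kinases in 5 of 5 alpha samples, with 79.9 ± 7.78% (SD; range 68.4% to 89.2%) of the summed FPKM of Pdk1 to Pdk4. It held 0.179 ± 0.136% in beta cells and 0.980 ± 1.15% in delta cells. The leading kinase was Pdk3 in 3 of 4 beta samples and Pdk2 in the other, and it was Pdk2 in 3 and Pdk3 in 3 of the 6 delta samples. Pdk3 held 55.5 ± 18.1% of the kinase FPKM in beta and 43.9 ± 22.2% in delta cells, with ranges of 32.9% to 77.0% and 20.6% to 79.4% that overlapped.

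The sums of the other kinases overlapped between the 3 cell types. The summed FPKM of Pdk1 to Pdk3 was 27.4 ± 12.0 (SD) in alpha, 41.4 ± 36.5 in beta and 30.5 ± 6.36 in delta cells. With Pdk4 the sums were 137.4 ± 38.7, 41.5 ± 36.6 and 30.8 ± 6.42. Among Pdk1 to Pdk3 alone, Pdk2 held the largest mean share in alpha cells (48.3 ± 18.2%) and delta cells (46.6 ± 20.6%), and Pdk3 in beta cells (55.6 ± 18.2%). These shares are descriptions over the chosen genes and were not tested.

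**Figure D2:**
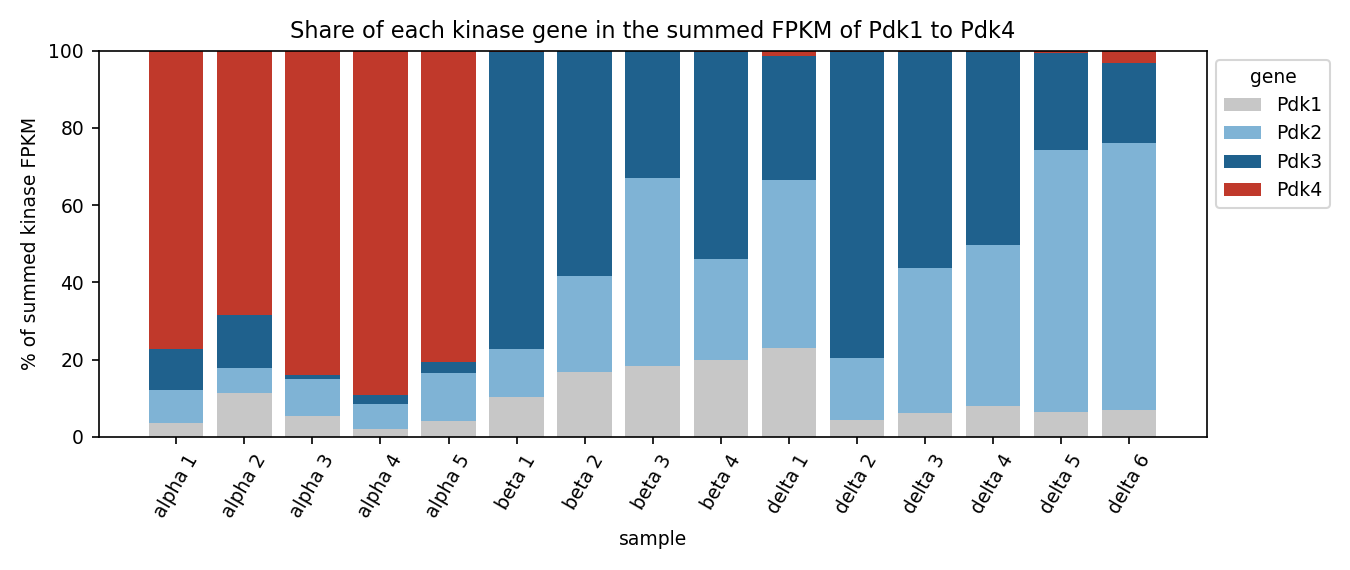
Share of Pdk1, Pdk2, Pdk3 and Pdk4 (colours) in their summed FPKM, in percent, 1 bar for each of the 15 samples. Pdk4 takes 68.4% to 89.2% in alpha samples and at most 3.21% elsewhere, and the split between Pdk2 and Pdk3 varies from sample to sample in beta and delta cells.

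The phosphatase Pdp1 is the calcium-stimulated form, and lies on the minus strand at chr4:11958184-11966452. Its level was 7.13, 7.09, 6.53, 2.49 and 3.97 FPKM in alpha samples, 2.35, 16.8, 1.03 and 10.7 FPKM in beta samples, and 2.81, 2.02, 1.77, 2.85, 2.00 and 1.94 FPKM in delta samples. Delta samples were low and even, with a mean of 2.23 ± 0.471 (SD), whereas alpha cells had 5.44 ± 2.10 and beta cells 7.70 ± 7.39 FPKM. Beta samples 2 and 4 were above every delta and alpha sample and beta sample 3 was below them all. The difference of delta from beta cells was -0.94 (SE 0.499, 95% interval -1.99 to 0.12, limma adjusted p = 0.238), and that of beta from alpha cells was under 0.01 in size (SE 0.519, 95% interval -1.10 to 1.10, limma adjusted p = 1).

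The deposited FPKM carried a scale that differed between samples, and Pdp1 depended on it. Median-ratio size factors ran from 0.4575 in beta sample 3 to 1.714 in beta sample 2. After division by them, Pdp1 was 6.45 ± 4.17 FPKM (SD) in beta cells, with a range of 2.26 to 10.3, and 1.93 ± 0.349 FPKM in delta cells, with a range of 1.45 to 2.31. The difference of delta from beta cells was then -1.16 and passed the test (limma adjusted p = 0.0296), as it did after quantile normalization (-1.25, limma adjusted p = 0.0205) and without beta sample 3 (-1.47, limma adjusted p = 0.0430). It was smaller and did not pass without beta sample 2 (-0.42, limma adjusted p = 0.555), without beta sample 4 (-0.63, limma adjusted p = 0.536) and in the samples with lower ribosomal protein sums (-0.47, limma adjusted p = 0.605). The untested difference of delta from alpha cells was -0.93, and here alpha sample 4 lay among the delta samples.

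Pdp2, the phosphatase known to answer to insulin and feeding, was the lowest of the 6 genes in alpha cells and lies on the plus strand at chr8:104591451-104599026. It was present at 0.977, 1.78, 1.37, 0.861 and 4.73 FPKM in alpha samples, 2.43, 2.98, 3.61 and 1.39 FPKM in beta samples, and 2.03, 3.69, 3.24, 2.67, 2.82 and 0.720 FPKM in delta samples. The means of 1.94 ± 1.60 (SD), 2.60 ± 0.938 and 2.53 ± 1.05 FPKM lay within the spread of each other. Beta minus alpha was 0.38 on the log2 scale (SE 0.381, 95% interval -0.42 to 1.19, limma adjusted p = 0.583) and delta minus beta was -0.06 (SE 0.366, 95% interval -0.83 to 0.72, limma adjusted p = 0.947). The untested difference of delta from alpha cells was 0.33.

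None of the 10 tests of the genes other than Pdk4 passed (5 of beta minus alpha, 5 of delta minus beta), and none had an unadjusted limma p under 0.05. Over all genes tested, limma called 7.66% for beta minus alpha, 6.81% for delta minus alpha and 14.7% for delta minus beta at an adjusted p under 0.05. Two-sided exact permutation tests gave p from 0.222 to 0.952 for the 10 differences, and 0.635 to 0.952 after Benjamini-Hochberg adjustment over these 10. The smallest p that these group sizes allow in the exact permutation test is 0.0159 for beta minus alpha and 0.00952 for delta minus beta. The intervals reach differences of more than 1 on the log2 scale in at least 1 direction for each of these 5 genes, so like levels were not shown.

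**Figure D3:**
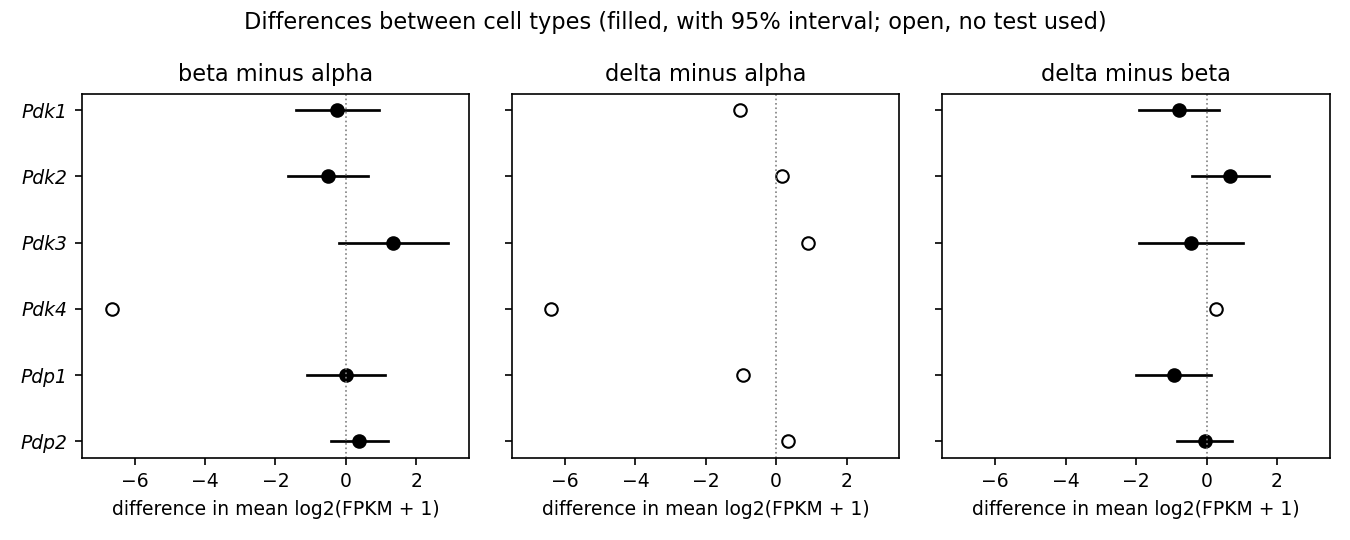
Difference in mean log2(FPKM + 1) of the 6 genes between cell types, as filled points with limma's 95% interval where tested, and as open points without one where the genes were chosen on the comparison or, for Pdk4 in delta minus beta, where both means are under 1 FPKM. The 10 intervals include 0, and the open points of Pdk4 against alpha cells lie at -6.64 and -6.39.

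The ratio of kinase to phosphatase mRNA was highest in alpha samples with Pdk4 counted and not without it. The summed FPKM of the kinases over that of the phosphatases was 22.0 ± 14.9 (SD) in alpha cells, with a range of 10.6 to 47.7, against 4.16 ± 2.78 in beta cells (1.86 to 7.86) and 6.87 ± 2.34 in delta cells (3.70 to 10.5). The lowest alpha sample was just above the highest delta sample. Without Pdk4 the ratio was 3.84 ± 1.34 in alpha, 4.15 ± 2.77 in beta and 6.79 ± 2.23 in delta cells, and all 3 ranges overlapped. Pdp1 held 74.1 ± 16.6% of the phosphatase FPKM in alpha, 61.2 ± 31.5% in beta and 49.1 ± 14.7% in delta cells. These ratios of mRNA are not measures of enzyme activity and were not tested.

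**Figure D4:**
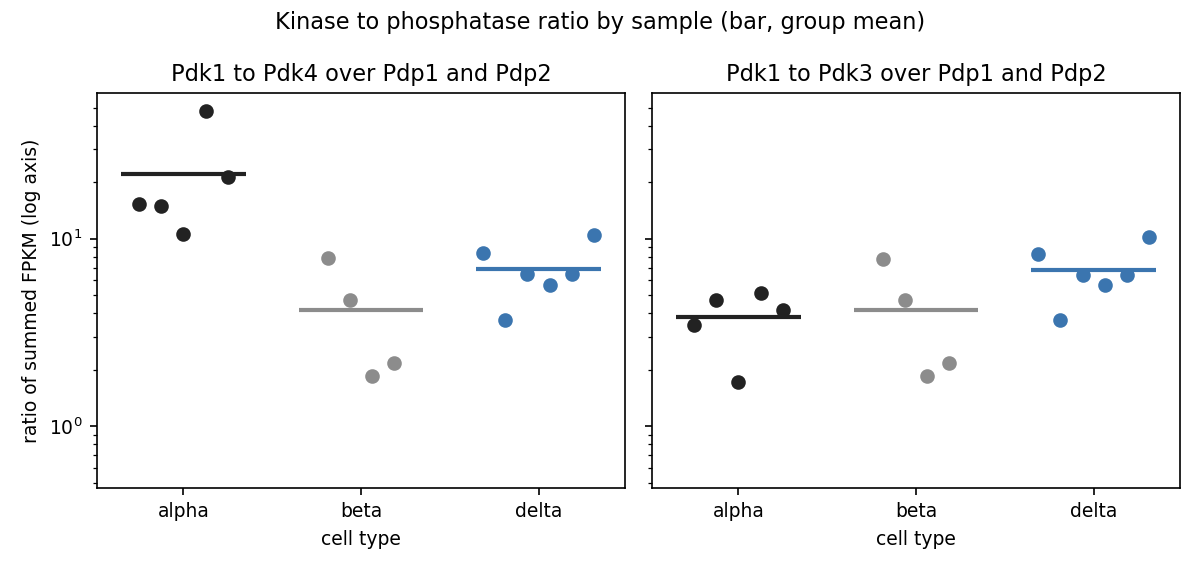
Summed FPKM of the kinases over that of Pdp1 and Pdp2 in each sample (log axis), with Pdk4 (left) and without it (right), and a bar at the group mean. With Pdk4 the alpha samples run from 10.6 to 47.7, above all others, and without it they run from 1.71 to 5.13 and overlap the beta and delta samples.

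The mRNA of the complex that these enzymes act on was present in all 3 cell types. Of 6 subunit genes, 5 were tested and none passed in any of the 3 comparisons, by limma's adjusted p or by an unadjusted p under 0.05. Pdha1, whose product carries the phosphorylated sites, was at 18.3 ± 3.20 (SD), 14.2 ± 8.24 and 15.1 ± 5.31 FPKM in alpha, beta and delta cells. Pdhb, its partner in the first enzyme, was at 38.1 ± 8.75, 34.5 ± 25.0 and 31.8 ± 10.6 FPKM, and Pdha2, the testis form, was listed at 0 in every sample. Dld, the dihydrolipoyl dehydrogenase, was at 58.1 ± 50.9 FPKM in beta cells against 18.3 ± 5.95 in alpha and 18.6 ± 5.40 in delta cells, which did not pass (limma adjusted p = 0.273 and 0.219). With median-ratio size factors, Dld was higher in beta cells than in both neighbours (beta minus alpha 1.32, limma adjusted p = 0.0252, and delta minus beta -1.46, limma adjusted p = 0.00897). In the deposited values, where beta samples 2 and 4 were the highest, beta minus alpha (1.08) was 0.67 without beta sample 2 and 0.59 without beta sample 4, and delta minus beta (-1.06) was -0.65 and -0.57, while the latter passed without beta sample 3 (-1.60, limma adjusted p = 0.0485). In FPKM, a scale per length, the alpha cell mean of Pdk4 (110.0) was above that of each subunit.

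Among 3 related genes, Pdpr (the regulatory phosphatase subunit) and Bckdk and Ppm1k (the kinase and phosphatase of the branched-chain keto acid complex), none was called in any comparison, and 1 (Ppm1k, beta against alpha cells) had an unadjusted limma p under 0.05. Pdpr was at 1.61 ± 1.45 (SD), 1.20 ± 0.385 and 2.33 ± 1.61 FPKM in alpha, beta and delta cells. The difference of Ppm1k between beta and alpha cells was 1.03 (limma adjusted p = 0.187), 0.65 without beta sample 2 (limma adjusted p = 0.358) and 1.21 with median-ratio size factors (limma adjusted p = 0.0199).

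Of 12 genes of pyruvate entry and use, 9 were tested. By limma's adjusted p, 1 was higher for beta minus alpha, 1 was higher for delta minus alpha, and 1 was higher and 1 lower for delta minus beta. Of all genes tested, 2.84% were higher and 4.82% lower for beta minus alpha, 5.33% and 1.48% for delta minus alpha, and 11.7% and 2.99% for delta minus beta. Pcx stood at 0.333 ± 0.205, 3.11 ± 2.10 and 0.612 ± 0.339 FPKM (SD) in alpha, beta and delta cells. Beta cells exceeded alpha cells by 1.50 on the log2 scale (SE 0.330, limma adjusted p = 0.0101), and delta minus beta was -1.24 (SE 0.317, limma adjusted p = 0.0145). Pcx passed the filter of 1 FPKM only through beta cells, where it was higher, so these tests were not independent of the filter. Without the filter the limma adjusted p was 0.0097 and 0.0134. Me3, a mitochondrial malic enzyme, had a delta minus alpha difference of 1.23 (SE 0.282, limma adjusted p = 0.0118). Ldha, which turns pyruvate into lactate, was low throughout, at 0.237 ± 0.231, 0.0665 ± 0.0824 and 1.02 ± 0.402 FPKM in the same order, and its delta minus beta difference was 0.90 (SE 0.258, limma adjusted p = 0.0282). Ldha passed the filter only through delta cells, where it was higher, so this test was not independent of the filter. Without the filter its limma adjusted p was 0.00319. In the samples with lower ribosomal protein sums, Me3 (1.10) and the delta minus beta difference of Pcx (-0.79) were not called (limma adjusted p = 0.0982 and 0.0571), nor was Ldha after quantile normalization (0.58, limma adjusted p = 0.157). The sizes also depended on the pseudocount. With 0.1, Pcx had 2.795 for beta minus alpha and -2.114 for delta minus beta, and Ldha had 2.781 for delta minus beta. The list's median difference was -0.04, 0.03 and 0.06 for beta minus alpha, delta minus alpha and delta minus beta, and that of all genes tested -0.13, 0.13 and 0.29.

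Of 15 transcription factors and coactivators known to act on Pdk genes, 12 were tested. For beta minus alpha, 1 was called higher and 2 lower, where 2.84% and 4.82% of all genes tested were. For delta minus alpha, 1 was lower, against 1.48% of all. For delta minus beta, 3 were higher and 1 lower, against 11.7% and 2.99%. Rxra, the partner of the PPAR receptors, was highest in alpha cells like Pdk4, at 10.6 ± 5.07 FPKM (SD) against 1.36 ± 0.463 in beta and 3.25 ± 1.56 in delta cells. Its lowest alpha sample had 5.96 FPKM and its highest sample elsewhere 5.27 FPKM. Beta minus alpha was -2.23 (SE 0.391, limma adjusted p = 0.00189) and delta minus alpha -1.47 (SE 0.353, limma adjusted p = 0.0158). The latter was not called in the samples with lower ribosomal protein sums (limma adjusted p = 0.0798).

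Pparg, a PPAR receptor of fat cells, was highest in beta cells, with 2.42 to 8.46 FPKM in beta samples and at most 0.215 FPKM in any other. Its beta minus alpha difference was 2.48 (SE 0.291, limma adjusted p = 3.86e-05), and 5.155 with a pseudocount of 0.1. Pparg passed the filter only through beta cells, where it was higher, so this test was not independent of the filter. Without the filter its limma adjusted p was 1.59e-05. Ppara, the receptor best known for raising Pdk4 in fasted liver, was listed at 0 in every alpha and beta sample and reached 1.03 FPKM in delta cells, below the filter on the mean. Ppard, another PPAR receptor, was at 7.44 ± 6.82, 2.89 ± 0.981 and 9.16 ± 4.55 FPKM (SD) in alpha, beta and delta cells. It was not called in any comparison. Thra, a thyroid hormone receptor, was lowest in beta cells (beta minus alpha -1.75, SE 0.391, limma adjusted p = 0.0117) and had a delta minus beta difference of 2.11 (SE 0.377, limma adjusted p = 0.00120). Its beta minus alpha difference was not called with only those cell types fitted (limma adjusted p = 0.0562). Thrb and the orphan receptor Esrra had delta minus beta differences of 1.08 and 1.12 (limma adjusted p = 0.0452 and 0.0338), but neither was called with median-ratio size factors (0.73 and 0.89) or quantile normalization (0.64 and 0.60). Esrra passed the filter only through delta cells, where it was higher, and its limma adjusted p was 0.0397 without the filter. The median difference of the list was -0.36, 0.22 and 0.63 in the 3 comparisons.

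Of 22 genes of fatty acid oxidation and other PPAR targets, 17 were tested. Of these, 3 were called lower for beta minus alpha, where 4.82% of all genes tested were. For delta minus alpha, 1 was lower, against 1.48% of all. For delta minus beta, 4 were higher and 1 lower, against 11.7% and 2.99%. Lpl, which frees fatty acids from lipoproteins, was at 48.1 ± 22.4, 22.1 ± 17.6 and 1.00 ± 0.296 FPKM (SD) in alpha, beta and delta cells, with a delta minus alpha difference of -4.52 (SE 0.475, limma adjusted p = 1.04e-05). Cd36, a fatty acid carrier, had 9.55 ± 8.90 FPKM in alpha and 0.150 ± 0.299 in beta cells (beta minus alpha -2.68, SE 0.597, limma adjusted p = 0.0115). The size of this difference depended on the setting: it was -1.06 and not called in the samples with lower ribosomal protein sums (limma adjusted p = 0.202), -5.10 with a pseudocount of 0.1, and not called with only those cell types fitted (limma adjusted p = 0.104). Acadvl, the dehydrogenase of very long chains, was at 52.4 ± 8.97 FPKM in alpha, 19.6 ± 2.66 in beta and 42.9 ± 10.7 in delta cells, with a beta minus alpha difference of -1.37 (SE 0.312, limma adjusted p = 0.0136).

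Of the 4 genes of that list higher in delta than in beta cells, Ucp2, a mitochondrial carrier, differed by 2.12 (SE 0.370, limma adjusted p = 0.000992), and Acot2, Cpt1c and Acadvl by 1.76, 1.36 and 1.07 (limma adjusted p = 0.00896, 0.00536 and 0.0250). Cpt1c passed the filter only through delta cells, where it was higher, and its limma adjusted p was 0.0048 without the filter. Acadvl was not called in either comparison with median-ratio size factors (beta minus alpha -1.11, delta minus beta 0.65). Angptl4, Ucp3 and Fabp4, PPAR targets of other tissues, had means of at most 0.049 FPKM in each cell type. The median difference of the list was -0.60, 0.22 and 0.72. The shares of all genes called in one direction depended on the scaling: 37.0% of the calls for beta minus alpha were higher with the deposited values and 52.7% with median-ratio size factors. The same shares were 78.3% and 67.9% for delta minus alpha, and 79.6% and 51.5% for delta minus beta. The size factors moved the median difference of all genes tested from -0.126, 0.126 and 0.295 to 0, 0.00456 and 0.0173.

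**Figure D5:**
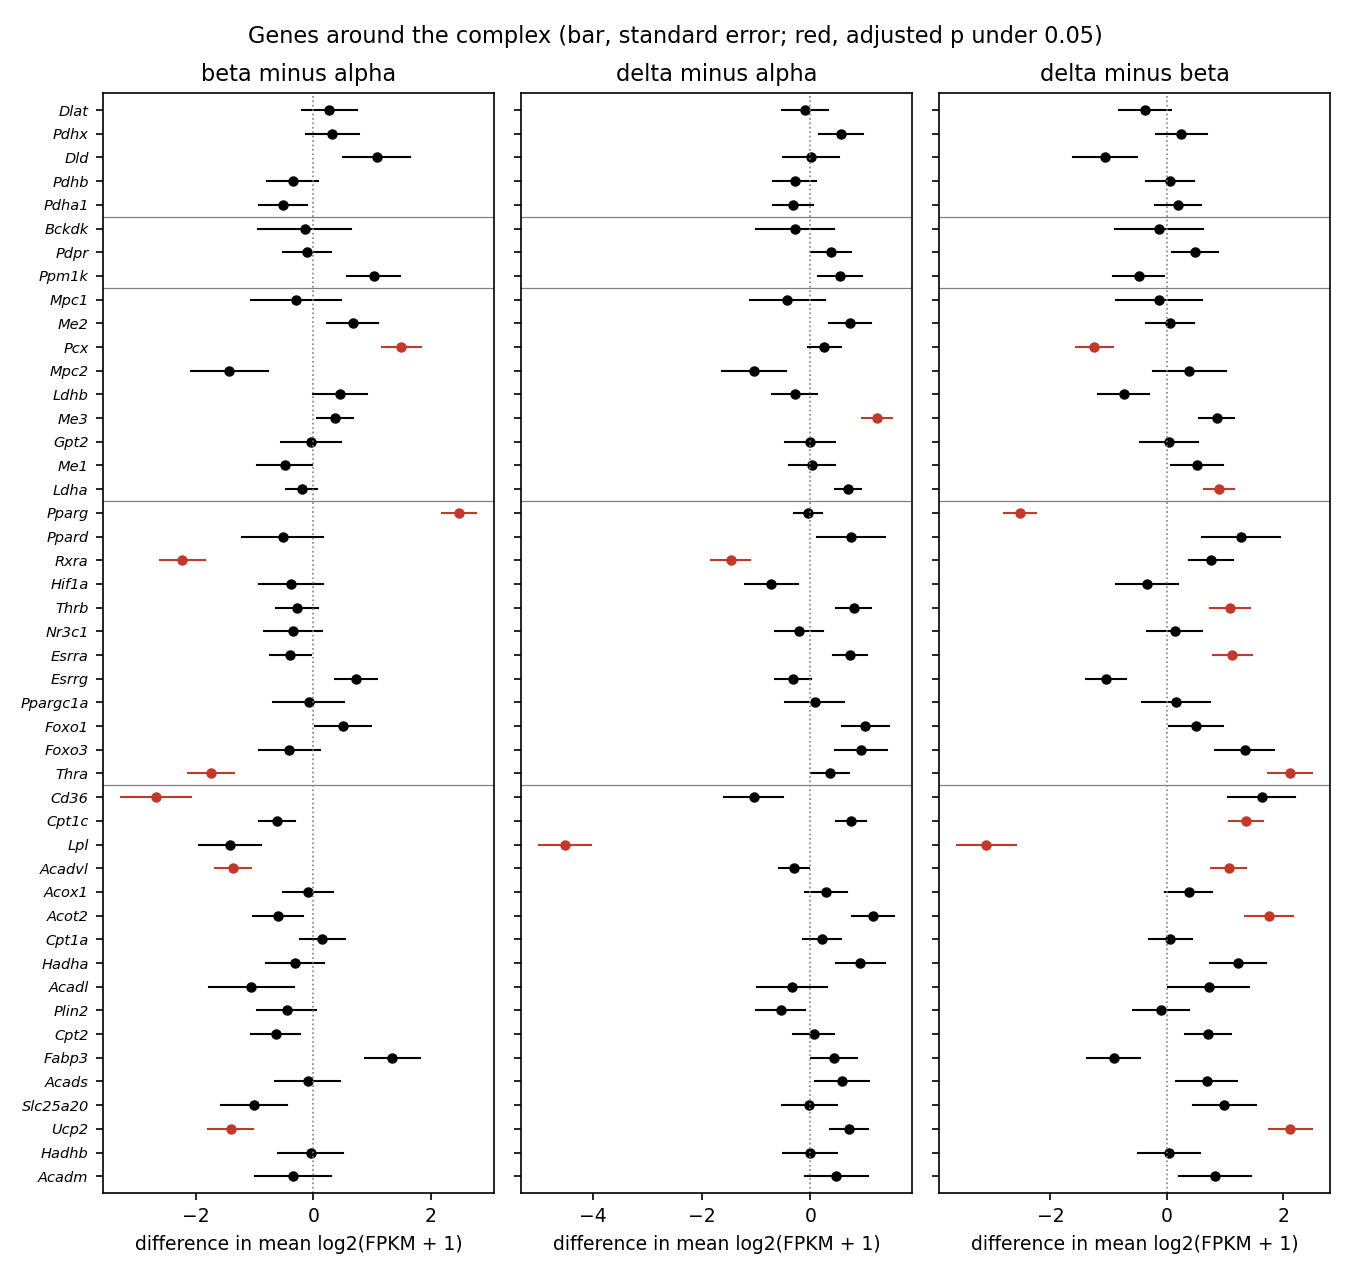
Difference in mean log2(FPKM + 1) for the tested genes of the 5 lists (complex subunits, related genes, pyruvate entry and use, factors, fatty acid oxidation and PPAR targets, from top to bottom, parted by lines), with bars of 1 standard error and red for a limma adjusted p under 0.05. The 5 complex subunits carry no red point, and Lpl at -4.52 for delta minus alpha is the farthest from 0.

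The genes whose log2(FPKM + 1) was most like that of each member over the 15 samples were picked among all genes tested, as a description. For Pdk4 these included Galnt13 (r = 0.990), Gfra3 (0.984), Avpr1b (0.983) and Sertm1 (0.981). These 4 had their highest mean in alpha cells, from 7.54 FPKM for Avpr1b to 17.1 FPKM for Galnt13, below the 110.0 FPKM of Pdk4. For Pdp1 they were Ccng1 (0.963), Shprh (0.962) and Taf7 (0.948), and for Pdk1, Glt28d2 (0.855), Ppib (0.849) and Cenpw (0.838). For Pdk2 they were Plod3 (0.868), Arhgef11 (0.859) and Dcaf7 (0.856), for Pdk3, Rhoq (0.873), Anapc5 (0.852) and Tmem248 (0.851), and for Pdp2, Brsk2 (0.779), Tspan4 (0.747) and Usp21 (0.704). Among the members, the highest correlation was that of Pdk1 with Pdp1 (r = 0.750) and the lowest that of Pdk3 with Pdk4 (r = -0.437). The samples share library scale and cell type, which enter all of these values.

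The stretches upstream of Pdk4, Pdk2 and Pdk3 are shown because each was the leading kinase gene of some samples: Pdk4 in all alpha samples, Pdk3 in 3 beta and 3 delta samples, and Pdk2 in 1 beta and 3 delta samples. The levels of Pdk2 and Pdk3 overlapped between the cell types. Each holds the 250 bases before the RefSeq start (GRCm38.p6), 5′ to 3′ on the gene's own strand, from chr6:5496279-5496528, chr11:95041372-95041621 and chrX:93832151-93832400, all minus strand. Capitals mark every match, on either strand, of the CCAAT box, of the so-called GC box with the letters GGGCGG, and of the core of hypoxia response elements, ACGTG.
Pdk4: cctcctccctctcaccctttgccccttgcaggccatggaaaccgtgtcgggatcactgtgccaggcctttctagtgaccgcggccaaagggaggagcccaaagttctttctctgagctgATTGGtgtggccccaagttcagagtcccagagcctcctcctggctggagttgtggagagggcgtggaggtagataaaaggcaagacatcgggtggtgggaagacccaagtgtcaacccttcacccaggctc
Pdk2: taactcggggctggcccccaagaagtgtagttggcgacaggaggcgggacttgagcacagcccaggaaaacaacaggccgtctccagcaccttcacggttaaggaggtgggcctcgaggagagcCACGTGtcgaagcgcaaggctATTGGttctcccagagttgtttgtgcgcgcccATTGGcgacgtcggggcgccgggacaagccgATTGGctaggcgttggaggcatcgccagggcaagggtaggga
Pdk3: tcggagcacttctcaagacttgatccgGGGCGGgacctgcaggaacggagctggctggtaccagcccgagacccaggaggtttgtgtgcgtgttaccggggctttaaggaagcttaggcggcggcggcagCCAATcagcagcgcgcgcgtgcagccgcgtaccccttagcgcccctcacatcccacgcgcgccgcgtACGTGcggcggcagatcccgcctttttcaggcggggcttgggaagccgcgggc

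The Pdk4 stretch held 6 CpG and 58.8% G and C, against medians of 6 CpG and 52.4% over 32851 such stretches. Pdk2 and Pdk3 held 19 and 29 CpG, and 80.3% and 93.2% of all stretches held fewer. Those of Pdk1 and Pdp2 held 19 and 11 CpG, and Pdp1 had no entry. Pdk4 had a CCAAT match, at 131 to 127 bases before the start on the minus strand of the gene, Pdk2 had 3, Pdp2 had 2, Pdk3 had 1 and Pdk1 had none, and 33.8% of all stretches hold it. GGGCGG, held by 32.7% of all, was found in Pdk1, Pdk3 and Pdp2, and ACGTG, held by 16.6%, in Pdk2, Pdk3 and Pdp2. In Pdk2 and Pdp2 the ACGTG matches of both strands overlap in 1 palindrome. TATAAA (12.4% of all), AGGTCA (the core of nuclear receptor sites, 14.0%) and TGTTTAC (a FoxO core, 3.17%) matched none of the 5 stretches on either strand. A match is a description of these letters and no evidence of binding.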

How the data were processed

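RNA was measured in 15 samples of sorted alpha, beta and delta cells, grouped by their labels. The authors amplified the RNA, used TopHat for alignment to GRCm38, and the deposited values are FPKM made with Cufflinks 2.2.1; the annotation release, scaling between libraries and use of strand are not given in the sources used here. FPKM are scaled by transcript length and mapped reads, and levels of different genes are set side by side here on that scale. How well amplified RNA and the unstated gene models allow this was not tested. A few abundant hormone genes can shift all others. For their own comparison the authors used edgeR, and the raw read counts that they also made were not used here. Values were tested as log2(FPKM + 1) with limma 3.58.1 in R 4.3.3 (lmFit, eBayes with a trend), all 15 samples in a single fit with a mean for each cell type and no covariate. Benjamini-Hochberg adjustment ran over 14405 genes whose mean exceeded 1 FPKM in some cell type, all 6 members among them, and an adjusted p under 0.05 was a call.

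The limma fit was first tested on simulated data. Python 3.11.15 (pandas 2.3.3, numpy 2.4.6, matplotlib 3.10.9) served for all else. Single members were also tested with two-sided exact permutation tests. The planned tests of Pdk4 in delta against beta cells were not used, since it passed the filter only through alpha cells. Whether samples with the same number came from the same sort is not given in the sources used here. Read depth was judged from steps of single reads in 5066 genes with 1 transcript longer than 1000 nt, and could not be resolved in 9 samples. The limit of 50000 FPKM that parts the samples by ribosomal protein genes was chosen after the values were seen. Gene models are from GENCODE M21 (36425 of the genes matched) and upstream sequences from RefSeq.

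The members and gene lists were chosen with earlier results of these data known. The rule named the 6 members, the list genes with an adjusted p under 0.05 whose samples did not overlap, and the 5 genes most like Pdk4 and 3 most like each other member. Dld, Ppm1k, Ppard, Pdha1, Pdhb, Pdpr and the genes listed near 0 were named after their values were seen. So were Rbp4 and the single genes of the ductal and stellate marker lists. A few genes that the rule or lists hold are not reported here. Alternatives were other pseudocounts and filters, fits of 2 cell types, the replicate block, other scalings and variance priors, the ribosomal sets and leaving out each sample.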

Additional observations from a re-analysis of the deposited data

Results flagged for a closer look

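In 3 of 18 groups (6 genes in 3 cell types), a sample lay farther from the others than Dixon's 95% limit on the log2(FPKM + 1) scale, where chance alone flags 0.9. Pdk1 was highest in delta sample 1, at 9.44 FPKM, with a gap to the next sample of 0.643 of the range (limit 0.625). Pdk2 was highest in alpha sample 5, at 23.1 FPKM (0.735, limit 0.71), and lowest in delta sample 2, at 3.39 FPKM (0.681, limit 0.625).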

How the results depend on the processing

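Leaving Pdk4 aside, the 10 tested differences of the other genes had 258 values under other settings, of which 240 kept their direction and their side of the threshold, 14 turned and 4 were called. The 7 differences without a test had 174 such values, of which 172 kept their direction. Pdk4 was lower in beta and delta than in alpha cells in every fit. Its untested differences on the log2 scale moved to -9.36 (beta against alpha) and -8.39 (delta against alpha) with a pseudocount of 0.1, and to -7.12 and -6.85 in the samples with lower ribosomal protein sums. Delta against beta cells passed the test for Pdp1 with median-ratio size factors (-1.16) and quantile normalization (-1.25) and for Pdk2 in the samples with lower ribosomal protein sums (1.47). Differences near 0 turned: Pdp1 in beta against alpha cells to -0.12 with a pseudocount of 0.1 and to -0.0512 with the replicate block, Pdp2 in delta against beta cells to 0.000433 with the block, Pdk4 in delta against beta cells to -0.0121 with quantile normalization, and Pdk1 in beta against alpha cells to 0.0322 with the set of samples as a covariate. The untested delta minus alpha difference of Pdp2 (0.33) turned to -0.0399 with quantile normalization and to -0.0384 in the samples with lower ribosomal protein sums. The cause was not tested. Pdp2 had no value with a filter at 5 FPKM, which its means do not reach.

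Leaving out each sample in turn gave -0.73 to 0.17 for Pdk1, -1.003 to -0.26 for Pdk2, 0.80 to 2.08 for Pdk3, -0.51 to 0.53 for Pdp1, 0.25 to 0.66 for Pdp2 and 698 to 1743 genes called in beta against alpha cells, the fewest without beta sample 4 and the most without beta sample 2. In delta against beta cells it gave -1.19 to -0.29 for Pdk1, 0.43 to 1.17 for Pdk2, -1.17 to 0.11 for Pdk3, -1.47 to -0.42 for Pdp1 (called without beta sample 3) and -0.24 to 0.14 for Pdp2. The extremes of Pdk1 and Pdk2 in both comparisons, and of Pdk3 and Pdp1 in beta against alpha cells, came without beta samples 2 and 3. In delta against alpha cells, untested, the ranges were 0.03 to 0.50 for Pdk2, 0.46 to 1.28 for Pdk3 and 0.19 to 0.60 for Pdp2. Of all genes, 1104 were called in beta against alpha, 981 in delta against alpha and 2114 in delta against beta cells. Beta against alpha cells had 520 calls with only those cell types fitted, 2072 with median-ratio size factors and 1970 with quantile normalization. A filter at 5 FPKM left 518 calls in delta against alpha and 1319 in delta against beta cells, where fewer genes were tested. Of the list genes called, those not called under at least 1 other setting were Acadvl, Cd36, Esrra, Ldha, Me3, Pcx (delta against beta), Rxra (delta against alpha), Thra (beta against alpha), Thrb and Ucp2 (beta against alpha); Thrb was called in 3 of 9 other settings.

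Whether replicate numbers pair the samples is not known, and they were not taken to: over 13 same-numbered pairs the correlation of deviations had a mean of 0.0762 (-0.152 to 0.281) and exceeded 0.1 in 5, all 3 pairs of number 2 among them. The sex-linked genes Xist and Eif2s3y were at 21.4 and 0 FPKM in alpha sample 3 and at 0.0294 and 13.6 FPKM in beta sample 3. These samples therefore did not hold the same pool of mice. In numbers 1, 2 and 4, alpha and beta samples were alike in which of these genes was higher. The replicate block called 1227, 831 and 2001 genes in the 3 comparisons and none of the 10 tested differences of the 5 genes other than Pdk4, whose comparisons with alpha cells had no test. With the block, Esrra, Thrb and Acadvl in delta against beta cells and Ucp2 in beta against alpha cells were not called (limma adjusted p = 0.0668, 0.0778, 0.0567 and 0.0540). By the pseudocount of 0.1, Cpt1c (3.01) and Acot2 (2.29) exceeded Ucp2 (2.13) in delta minus beta cells. Depth was unknown in 9 samples, and 1 read of Pdk4 stood for 0.0316 FPKM in delta sample 2.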

Other observations

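Pdk3 is X-linked, and the pools differed in sex-linked genes within each cell type. In beta samples, Pdk3 was 28.9 and 54.3 FPKM in the 2 pools with Xist at 42.6 and 63.5 FPKM, and 2.84 and 14.2 FPKM in the 2 pools with Xist at most 0.0294 FPKM. In alpha samples, the 3 pools with Xist at 16.9 to 21.4 FPKM had Pdk3 at 13.0, 18.0 and 0.968 FPKM, and the other 2 had 3.70 and 5.31 FPKM. These 3 and 2 alpha pools were also those with the higher and the lower ribosomal protein sums. In delta samples Pdk3 was 5.76 to 18.0 FPKM in the 4 pools with Xist at 17.1 to 26.1 FPKM and 7.85 and 16.8 FPKM in the other 2. The values overlapped in alpha and delta samples, this split was made after the values were seen, and it was not tested.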
